A study of Mus musculus with 17 samples.

Results

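The comparison was between astrocyte cultures that received fibroblast growth factor 2 (FGF2) and cultures that received its solvent, phosphate-buffered saline (PBS). The members are the 4 FGF2 and the 4 PBS libraries, 8 of the 17 libraries in the count table, chosen by their labels alone. Astrocytes were purified from the brains of postnatal day 2 C57BL/6 mice without meninges, olfactory bulbs and cerebellum. A suspension of brain cells was passed over dishes with an antibody against CD45, which hold back microglia and macrophages, over a dish against the O4 antigen, which holds back oligodendrocyte precursors, and over a dish against HepaCAM, which retains astrocytes. The FGF2 group received 50 ng/ml of FGF2 in PBS and the PBS group PBS alone, in both cases from day 2 in vitro for 7 d, and both groups grew in serum-free medium with heparin-binding EGF-like growth factor. The labels give neither the sex nor the litter behind a culture. The study calls its bulk replicates biological, but nothing states that they came from separate preparations, so the p-values measure the spread between these samples. Messenger RNA was read from its 3ʹ end, and the authors aligned and counted the reads per gene with STAR. For its bulk libraries the study speaks of sample pools, without the number of animals in each. The question was which genes and pathways of cultured astrocytes differ after a week with FGF2.

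FGF2 is a secreted ligand that binds receptor tyrosine kinases of the FGF receptor family together with heparan sulfate on the cell surface. Activated receptors recruit FRS2, GRB2 and SOS and signal through RAS and ERK, which raises transcription of the ETS factors *Etv1*, *Etv4* and *Etv5* and of feedback inhibitors of the Sprouty, Spred and DUSP families. FGF2 is known as a mitogen of astrocytes and neural precursors and as a survival factor in serum-free culture, and HB-EGF, present in all cultures here, acts through another receptor tyrosine kinase on the same RAS and ERK cascade.

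Total counts ran from 17481727 to 55550088 per library, and a level is given as CPM (reads of a gene in each 1000000 of its library) after TMM normalization of library size. Values per library follow the order of replicates 1, 2, 3 and 4. After removal of genes with few counts by edgeR, 12744 were tested, of which 3545 (27.8%) had no read in 1 or more of the 8 libraries, although a level of 5 to 10 CPM stands for many reads at this depth. The common biological coefficient of variation was 105%. Replicates 1 and 2 stood apart from replicates 3 and 4 in both groups (a difference between the sets at adjusted p under 0.05 in 386 genes, 3.03%, by edgeR's quasi-likelihood test), which the labels do not explain, so the replicate set entered the model as a term. The astrocyte markers were present, and 11 of 12 were tested. They summed to 5061, 5565, 3378 and 3647 CPM with FGF2 and 5238, 5033, 3931 and 3742 CPM with PBS. Of the 11, 2 were higher and 9 lower with FGF2, where 50% of all genes tested were higher. Within the sets, 7 were higher in replicates 1 and 2 and 1 in replicates 3 and 4. Of 18 markers of microglia and macrophages, 7 had no read in any library and 1 passed the filter. The oligodendrocyte lineage markers summed to 2485, 2621, 3833 and 4654 CPM with FGF2 and 2312, 2334, 3874 and 4215 CPM with PBS. *Olig1* and *Olig2*, factors that immature astrocytes also express, made up most of that sum, with means of 1138 and 1479.7 CPM with FGF2 and 1081 and 1272 CPM with PBS.

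No gene differed between FGF2 and PBS at an adjusted p under 0.05, nor at the study's own limits, which are 0.01 for the adjusted p and 1 for the size of the log2 fold change (0 of 12744 genes, 0%, edgeR's quasi-likelihood test, adjusted by Benjamini-Hochberg). The adjusted p was 1 for every gene tested. At an unadjusted p under 0.05, 403 genes (3.16%) were counted, 179 higher (1.4%) and 224 lower (1.76%) with FGF2. Among genes with a mean of at least 20 CPM the share was 5.25%, and with a mean of at least 200 CPM 9.42%, where 5% is the nominal share. Limma's voom with quality weights also gave 0 genes, with 522 at an unadjusted p under 0.05. DESeq2's Wald test, the test that the methods name, gave 765 genes at an adjusted p under 0.05 with the replicate set as a term and 117 without it. In 654 of the 765 genes and in 104 of the 117, all libraries of 1 group had at most 3 reads. Above that floor 111 of the 765 remained. Over all genes, log2 fold changes had a median standard error (SE) of 0.68, which was 0.37 over genes with a mean of at least 20 CPM and 0.20 over genes with a mean of at least 100 CPM. In RNA from whole cultures, fewer cells of a type and less RNA per cell cannot be told apart.

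The genes that came closest were those in which the FGF2 and PBS libraries did not overlap within replicates 1 and 2 nor within replicates 3 and 4, in the same direction. Of all genes tested, 417 (3.27%) met this with FGF2 higher and 353 (2.77%) with FGF2 lower, and 367 and 323 of them had a mean of at least 5 CPM. The 10 higher and the 10 lower genes with the smallest p are described here. They were selected on this contrast, so their values are a description. Leaving out *Crtap* and *Lpl*, which had almost no reads with PBS, the sizes of their log2 fold changes ran from 0.58 to 2.67. The adjusted p was 1 for each in edgeR, and DESeq2 called all 20 at an adjusted p under 0.05 with the set and 5 of them without it (*C2cd5*, *Me3*, *Fam53b*, *Crtap* and *Lpl*).

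Higher with FGF2 were genes of very different kinds. *Tmem176b*, which encodes a membrane protein, had the smallest unadjusted p of all genes at 0.000848. It lay at 159, 161, 348 and 413 CPM with FGF2 and 103, 116, 222 and 218 CPM with PBS. Within each set both FGF2 libraries were above both PBS libraries, but FGF2 replicates 1 and 2 were below PBS replicates 3 and 4. The log2 fold change was 0.67 (SE 0.16), 0.54 in replicates 1 and 2 and 0.79 in replicates 3 and 4. *Arpc1b*, a subunit of the ARP complex that nucleates branched actin, lay at 82.4, 104, 148 and 124 CPM with FGF2 and 71.2, 45.0, 59.1 and 39.0 CPM with PBS. All FGF2 libraries were above all PBS libraries, with a log2 fold change of 1.08 (SE 0.28). *G3bp1*, an RNA-binding protein that assembles stress granules, lay at 96.1, 113, 167 and 136 CPM with FGF2 and 55.2, 86.5, 61.9 and 56.2 CPM with PBS and likewise showed no overlap (log2 fold change 0.96, SE 0.25).

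*Lpl*, which encodes lipoprotein lipase, the enzyme that releases fatty acids from lipoproteins, lay at 1.67, 18.1, 12.0 and 10.4 CPM with FGF2 and 0.0607, 0.0278, 0 and 0 CPM with PBS. The PBS libraries held 3, 1, 0 and 0 reads and the FGF2 libraries 91, 320, 581 and 426. Against a floor of 3 reads per library, the level was at least 130.4-fold higher with FGF2. *Crtap*, a partner of the enzyme that hydroxylates collagen prolines, had no read with PBS and lay at 6.87, 14.6, 3.48 and 15.9 CPM with FGF2, at least 126-fold higher against the same floor. Both were low genes, close to the level at which many other genes had libraries without a read.

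*Hip1*, an endocytic adaptor that links clathrin to actin, had a log2 fold change of 0.96 (SE 0.23) with 0.93 in replicates 1 and 2 and 0.99 in replicates 3 and 4. *H2ax*, the histone variant phosphorylated at DNA breaks, and *Ncapd2*, a condensin subunit, had 1.03 (SE 0.26) and 0.59 (SE 0.16). *Snrpf*, a core protein of spliceosomal particles, and *Eloc*, elongin C of ubiquitin ligase complexes, had 0.75 (SE 0.21) and 0.79 (SE 0.22). In these 5 genes the sets separated within themselves but not over the 8 libraries, since levels of *H2ax* and *Ncapd2* in particular were higher in replicates 3 and 4 of both groups.

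Lower with FGF2 was first *C2cd5*, which encodes a C2-domain protein of vesicle trafficking. It lay at 7.78, 13.8, 7.63 and 5.68 CPM with FGF2 and 28.5, 52.8, 27.8 and 53.9 CPM with PBS. Every FGF2 library was below every PBS library, and the log2 fold change was -2.27 (SE 0.56), -1.92 in replicates 1 and 2 and -2.62 in replicates 3 and 4. *Me3*, the mitochondrial malic enzyme that makes NADPH, lay at 6.91, 4.25, 1.83 and 4.63 CPM with FGF2 and 41.4, 17.9, 26.4 and 22.7 CPM with PBS, again without overlap (log2 fold change -2.67, SE 0.78). *Fam53b* lay at 10.1, 5.89, 21.4 and 7.87 CPM with FGF2 and 42.9, 46.4, 24.5 and 55.4 CPM with PBS (log2 fold change -1.96, SE 0.57), where FGF2 replicate 3 came within a few CPM of PBS replicate 3.

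*Atp2a2*, the calcium pump of the endoplasmic reticulum, had little spread within the groups. It lay at 133, 139, 130.2 and 102 CPM with FGF2 and 201, 194, 187 and 172 CPM with PBS, a log2 fold change of -0.58 (SE 0.17). *Myl6*, a light chain of non-muscle myosin, lay at 216, 215, 157 and 129.7 CPM with FGF2 and 302, 269, 262 and 225 CPM with PBS (log2 fold change -0.58, SE 0.16). Neither gene overlapped between the groups. *Actn1*, which cross-links actin filaments, had a log2 fold change of -0.91 (SE 0.24) and overlapped between the sets. Both *Ppp1r1a*, an inhibitor of protein phosphatase 1, and *Ppp2r2b*, a regulatory subunit of protein phosphatase 2A, were on the lower side, at -1.09 (SE 0.28) and -0.97 (SE 0.27). *Gpd1*, the cytosolic glycerol-3-phosphate dehydrogenase, and *Carhsp1*, an RNA-binding protein, had -0.89 (SE 0.27) and -0.71 (SE 0.21), and in both PBS replicate 4 lay close to the FGF2 libraries, at 39.0 and 102 CPM. Of the 20 genes, 4 higher and 5 lower ones did not overlap over the 8 libraries. Any gene without overlap has p = 0.0286 by a two-sided exact permutation of the libraries, the lowest value possible with 4 in each group. The genes were selected for separation within the sets, so this p is no test of them. That permutation also took no account of the replicate set. Over all genes tested, 158 (1.24%) and 151 (1.18%) did not overlap in these directions.

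**Figure D1:**
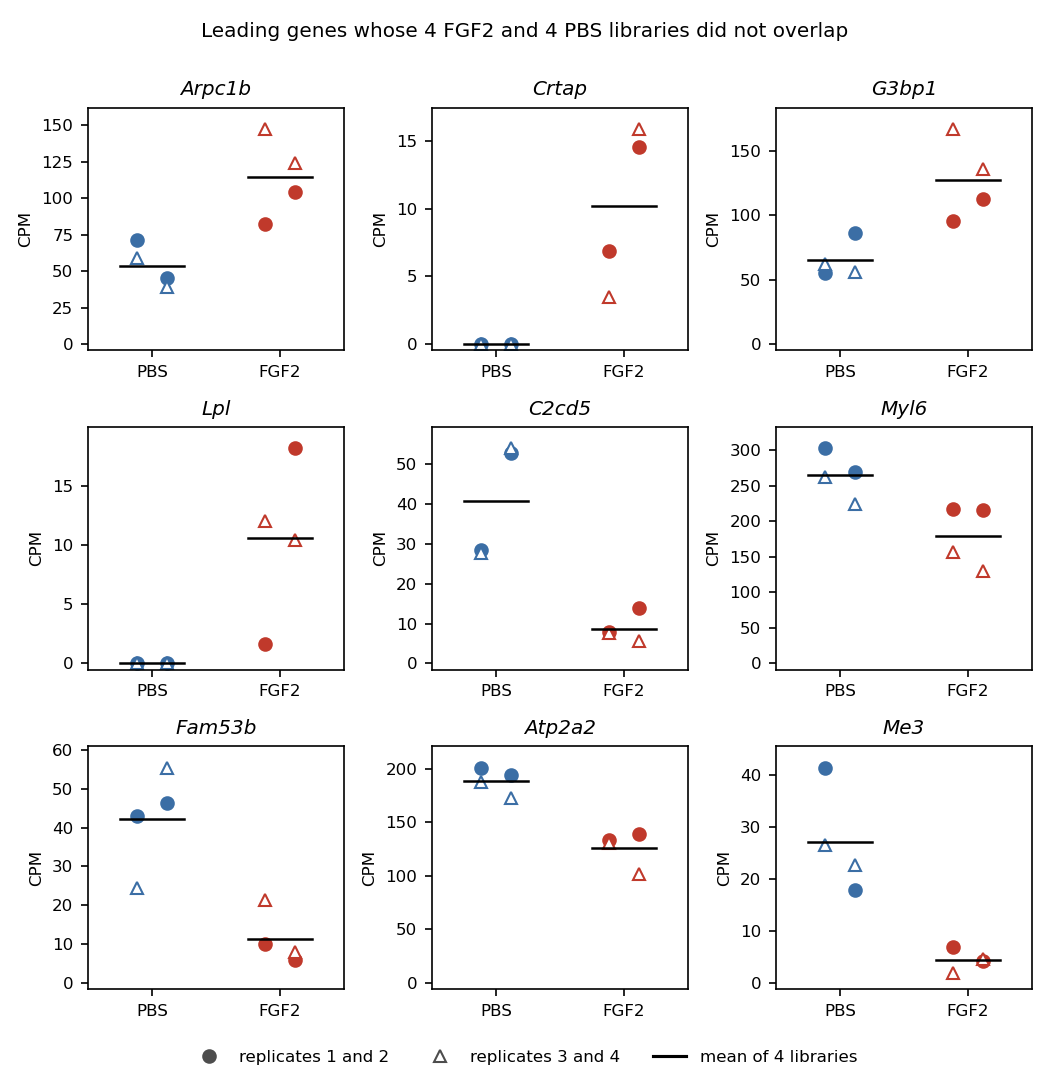
CPM of the 9 leading genes whose groups did not overlap, with 1 point per library on a linear axis, circles for replicates 1 and 2, triangles for replicates 3 and 4 and a line at the mean of 4 libraries. *Crtap* and *Lpl* sat at or next to 0 in all PBS libraries, while *Atp2a2* differed by less than a factor of 2 with little spread.

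Genes of the FGF pathway itself were measured first at the receptors. *Fgfr1* lay at 216, 172, 173 and 119 CPM with FGF2 and 194, 193, 101 and 136 CPM with PBS, and its libraries overlapped (log2 fold change 0.15, SE 0.19, unadjusted p = 0.449). *Fgfr2* lay at 71.4, 65.5, 21.8 and 65.0 CPM with FGF2 and 43.8, 62.8, 54.7 and 51.1 CPM with PBS, also with overlap (log2 fold change 0.039, SE 0.36, unadjusted p = 0.916). *Fgfr3*, the receptor most characteristic of astrocytes, lay at 97.3, 152, 35.4 and 45.2 CPM with FGF2 and 34.8, 60.7, 59.4 and 48.2 CPM with PBS. Its FGF2 libraries were above the PBS libraries in replicates 1 and 2 and below them in replicates 3 and 4, so that the log2 fold change of 0.48 (SE 0.39) combined 1.38 in replicates 1 and 2 and -0.42 in replicates 3 and 4 (interaction of treatment and set, unadjusted p = 0.00915, adjusted p = 0.997, edgeR).

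Of the 17 tested receptors and receptor-proximal adaptors, 11 were higher and 6 lower with FGF2, 0 at an unadjusted p under 0.05, where 50% of all genes tested were higher. The median log2 fold change was 0.082 (0.10 in replicates 1 and 2 and -0.14 in replicates 3 and 4), against -0.00024 over all genes. *Sos2*, the RAS exchange factor recruited by GRB2, was highest at 1.03 (SE 0.52, unadjusted p = 0.0690), and *Flrt2*, a membrane partner of FGF receptors, lowest at -0.58 (SE 0.56, unadjusted p = 0.315) among members with a mean of at least 5 CPM. Among the FGF ligands, 5 of 22 were tested, all with positive values and all under 20 CPM on average, and *Fgf2* itself was below the filter. *Fgf1*, which binds all FGF receptors, had a log2 fold change of 3.83 with an SE of 2.92 and *Fgf13*, an intracellular family member, 0.17 with an SE of 2.21. Heparan sulfate carriers and enzymes were 11 higher and 9 lower of 20 (median 0.022). Only *Sdc4*, syndecan 4, was under an unadjusted p of 0.05 in that list. It lay at 61.1, 38.2, 37.3 and 33.3 CPM with FGF2 and 74.0, 108, 57.8 and 64.3 CPM with PBS, a log2 fold change of -0.83 (SE 0.28, unadjusted p = 0.0114).

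Targets and feedback inhibitors of ERK signaling were measured next. Of 14 tested of 16 listed, 8 were higher and 6 lower, with a median log2 fold change of 0.22 (-0.0026 in replicates 1 and 2 and 0.63 in replicates 3 and 4), and 7 were higher and 3 lower in both replicate sets, where 25.3% of all genes were higher and 25.1% lower in both. *Etv4* was the member with the smallest p. It lay at 25.5, 11.1, 95.0 and 56.3 CPM with FGF2 and 13.2, 6.33, 31.2 and 40.4 CPM with PBS. FGF2 libraries were above PBS libraries in replicates 3 and 4 and overlapped in replicates 1 and 2, and the log2 fold change was 0.99 (SE 0.44, unadjusted p = 0.0407). The related ETS factors *Etv1* and *Etv5* had 0.56 (SE 0.30, unadjusted p = 0.0791) and 0.51 (SE 0.30, unadjusted p = 0.112).

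*Spry4*, a Sprouty inhibitor of receptor tyrosine kinase signaling, lay at 0, 10.4, 76.0 and 54.1 CPM with FGF2 and 1.11, 4.67, 26.6 and 8.54 CPM with PBS. It ranged over the whole scale within each group, and its log2 fold change of 1.37 had an SE of 1.13. *Spry2* lay at 61.5, 79.9, 136 and 117 CPM with FGF2 and 60.9, 73.7, 87.8 and 111 CPM with PBS (log2 fold change 0.21, SE 0.22, unadjusted p = 0.362). *Spry1* was on the other side at -1.58 (SE 0.90, unadjusted p = 0.104). *Dusp6*, the cytoplasmic ERK phosphatase, lay at 12.6, 17.1, 167 and 77.6 CPM with FGF2 and 20.5, 26.2, 65.3 and 96.5 CPM with PBS. Its log2 fold change was -0.024 (SE 0.36), with -0.65 in replicates 1 and 2 and 0.60 in replicates 3 and 4. *Il17rd*, an inhibitor of FGF signaling also called Sef, had -0.16 (SE 0.38, unadjusted p = 0.681). The summed level of the list was 463, 473, 1073 and 728 CPM with FGF2 and 413, 462, 542 and 691 CPM with PBS, so that the FGF2 libraries were above the PBS libraries within each set, by little in replicates 1 and 2.

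Immediate early genes, which growth factors induce within an hour, stood at 9 higher and 8 lower of 17 after the week of treatment, with a median of 0.032 (0.15 in replicates 1 and 2 and 0.46 in replicates 3 and 4). *Srf*, the serum response factor, had 1.93 (SE 2.46, unadjusted p = 0.445) and *Klf4*, a zinc finger factor, -2.78 with an SE of 2.10 and FGF2 replicates 1, 3 and 4 under 1 CPM.

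**Figure D2:**
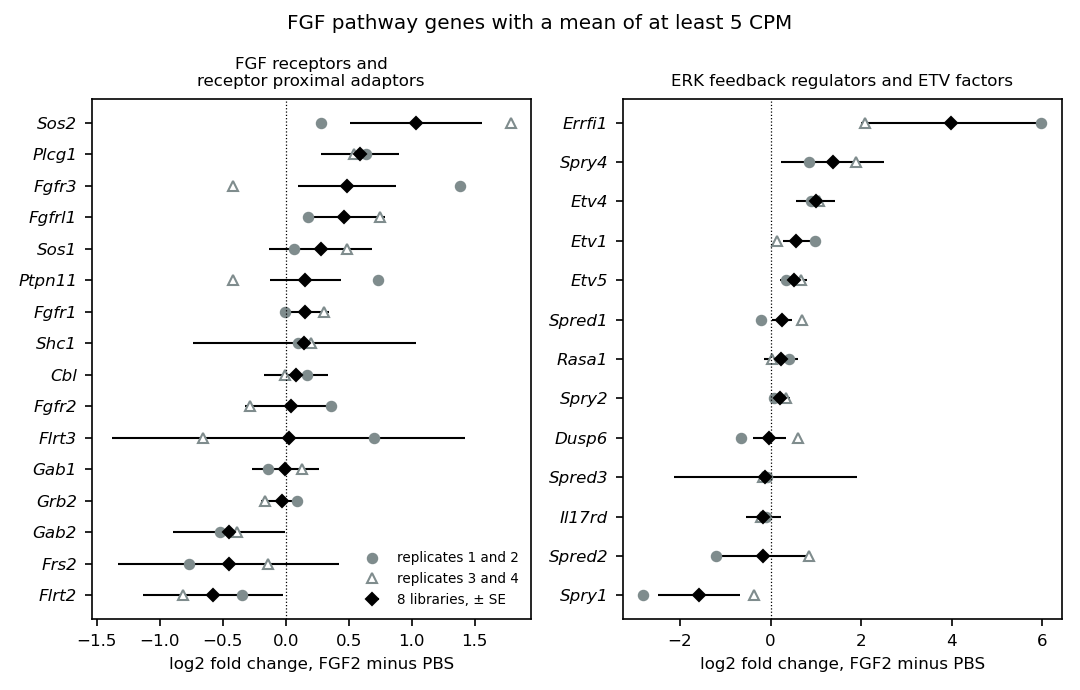
Log2 fold changes of FGF pathway genes with a mean of at least 5 CPM. Diamonds are the fit over 8 libraries with the standard error as a bar, circles replicates 1 and 2 and triangles replicates 3 and 4. *Fgfr3* and *Dusp6* took opposite signs in the sets, while *Etv4* stood near 0.99 in both.

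Mitosis genes stood mostly on the higher side with FGF2, by less than the distance between the replicate sets. Of 41 mitosis genes, 30 were higher and 11 lower with FGF2 and 0 passed the adjusted threshold. Their median log2 fold change was 0.41 (0.56 in replicates 1 and 2 and 0.32 in replicates 3 and 4), and 18 were higher and 2 lower in both replicate sets (43.9% and 4.88%, against 25.3% and 25.1% of all genes). The summed level was 874, 768, 4319 and 3515 CPM with FGF2 and 516, 646, 3432 and 3111 CPM with PBS. In both sets the FGF2 libraries were above the PBS libraries, and replicates 3 and 4 of either group were several-fold above replicates 1 and 2. The set difference was positive in 41 of 41 mitosis genes, with a median of 2.64 on the log2 scale.

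*Top2a*, the topoisomerase that untangles DNA before division, had the smallest p of the list. It lay at 209.7, 183, 777 and 599 CPM with FGF2 and 53.3, 126, 587 and 589 CPM with PBS, a log2 fold change of 0.68 (SE 0.25, unadjusted p = 0.0176) with 1.13 in replicates 1 and 2 and 0.23 in replicates 3 and 4. *Cdc20*, the activator of the anaphase-promoting complex, lay at 24.9, 6.00, 150.3 and 173 CPM with FGF2 and 4.70, 8.86, 99.4 and 99.1 CPM with PBS (log2 fold change 0.95, SE 0.38, unadjusted p = 0.0262). *Plk1*, the Polo-like mitotic kinase, lay at 4.45, 17.4, 107 and 95.0 CPM with FGF2 and 0.425, 0.695, 79.1 and 122 CPM with PBS. It was nearly without reads in PBS replicates 1 and 2 and overlapped in replicates 3 and 4, so its log2 fold change of 2.02 (SE 0.84, unadjusted p = 0.0305) came from 4.28 in the first set and 0.013 in the second. *Ccnb1*, the cyclin of mitotic entry, lay at 2.80, 4.76, 58.4 and 47.2 CPM with FGF2 and 0.0607, 0, 32.9 and 47.4 CPM with PBS and had the same form (3.01, SE 1.30, unadjusted p = 0.0364, with 6.79 in replicates 1 and 2 and 0.40 in replicates 3 and 4).

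These mitosis genes are known to share promoter elements, the cell cycle genes homology region with the core TTTGAA and the CCAAT box, and the windows of 300 bases that span the start of the 4 genes just described, most of each lying before it, are shown for that reason (RefSeq, GRCm38.p6). Each is given from 5ʹ to 3ʹ on the strand of its gene, in lower case, and capitals mark TTTGAA and CCAAT on either strand (TTCAAA and ATTGG on the other).
*Plk1* at chr7:122159185-122159484, plus strand: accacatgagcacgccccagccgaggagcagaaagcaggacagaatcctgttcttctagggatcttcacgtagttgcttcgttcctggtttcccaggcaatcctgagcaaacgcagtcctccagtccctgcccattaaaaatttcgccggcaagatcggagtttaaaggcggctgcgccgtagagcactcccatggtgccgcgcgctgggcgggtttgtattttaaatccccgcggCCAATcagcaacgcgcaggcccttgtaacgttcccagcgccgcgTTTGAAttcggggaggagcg
*Ccnb1* at chr13:100786437-100786736, minus strand: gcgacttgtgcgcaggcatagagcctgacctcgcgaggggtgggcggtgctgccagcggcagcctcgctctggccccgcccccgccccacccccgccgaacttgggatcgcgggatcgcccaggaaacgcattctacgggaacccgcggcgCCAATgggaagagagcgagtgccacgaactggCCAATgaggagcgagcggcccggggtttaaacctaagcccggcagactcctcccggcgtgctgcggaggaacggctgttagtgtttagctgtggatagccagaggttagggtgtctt
*Cdc20* at chr4:118437294-118437593, minus strand: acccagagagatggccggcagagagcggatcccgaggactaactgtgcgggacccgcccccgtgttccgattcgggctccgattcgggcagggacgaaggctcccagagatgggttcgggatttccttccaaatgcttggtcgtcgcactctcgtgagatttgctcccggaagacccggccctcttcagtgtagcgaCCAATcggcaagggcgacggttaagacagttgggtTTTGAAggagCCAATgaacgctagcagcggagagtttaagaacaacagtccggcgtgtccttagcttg
*Top2a* at chr11:99024140-99024439, minus strand: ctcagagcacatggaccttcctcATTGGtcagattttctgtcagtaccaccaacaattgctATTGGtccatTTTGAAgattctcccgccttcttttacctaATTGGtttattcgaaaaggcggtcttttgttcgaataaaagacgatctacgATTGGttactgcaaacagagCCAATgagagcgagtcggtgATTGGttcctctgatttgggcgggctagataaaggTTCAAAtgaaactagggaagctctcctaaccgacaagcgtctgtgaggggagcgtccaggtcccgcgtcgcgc
TTTGAA stood once in the windows of *Plk1* and *Cdc20*, in 2 places in that of *Top2a* and nowhere in that of *Ccnb1*. CCAAT stood in all 4. Of the mitosis genes tested, 34 had a window in the RefSeq table, and TTTGAA was found in 26 of them (76.5%) and CCAAT in 25 (73.5%). Over the windows of all 9593 genes tested that matched, the shares were 11.3% and 39.4%, and over all 27025 windows of that source 18.1% and 37.9%. CCAAT was also found in 14 of 16 windows of cholesterol synthesis genes (87.5%), above the share of the mitosis genes. It stood in 18 of 31 windows of DNA replication genes (58.1%) and in 5 of 12 of the ERK feedback list (41.7%). For TTTGAA the shares of these lists were 6.25%, 12.9% and 0%. A match of letters is a description and shows no binding.

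DNA replication genes had a positive median with FGF2 in replicates 3 and 4 and a slightly negative one in replicates 1 and 2. Of 38 tested, 23 were higher and 15 lower, and the median log2 fold change was 0.23 (-0.072 in replicates 1 and 2 and 0.56 in replicates 3 and 4). Without FGF2 replicate 3 the median was -0.087. *Pola2*, a subunit of DNA polymerase alpha, lay at 19.7, 24.1, 31.3 and 18.8 CPM with FGF2 and 4.70, 3.22, 7.67 and 10.6 CPM with PBS. Its groups did not overlap, and the log2 fold change was 1.96 (SE 0.77, unadjusted p = 0.0239). *Rpa2*, which coats single-stranded DNA, lay at 38.6, 49.0, 75.8 and 60.9 CPM with FGF2 and 18.9, 32.7, 18.8 and 45.9 CPM with PBS (log2 fold change 0.92, SE 0.39, unadjusted p = 0.0320).

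Among 20 G1 cyclins and their kinases, 13 were higher and 7 lower with FGF2 (median 0.15). *Ccnd1*, cyclin D1, a target of ERK signaling in many cells, lay at 43.5, 65.1, 1001 and 341 CPM with FGF2 and 23.8, 56.7, 196 and 304 CPM with PBS. FGF2 replicate 3 was far above all other libraries, the remaining libraries overlapped, and the log2 fold change was 0.93 (SE 0.36, unadjusted p = 0.0206) with 0.43 in replicates 1 and 2 and 1.42 in replicates 3 and 4. Without FGF2 replicate 3 it was 0.43. *Ccnd2*, cyclin D2, lay at 817, 749.8, 1269.7 and 585 CPM with FGF2 and 587, 783, 422 and 498 CPM with PBS (log2 fold change 0.60, SE 0.23, unadjusted p = 0.0203). The list summed to 2045, 2075, 3766 and 2184 CPM with FGF2 and 1888, 1905, 1786 and 2121 CPM with PBS, where FGF2 replicate 3 again stood apart. *Ccnd1* reached an adjusted p of 0.0486 in edgeR without a filter and 0.0372 when genes needed only 10 counts on average, where no other gene was called.

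**Figure D3:**
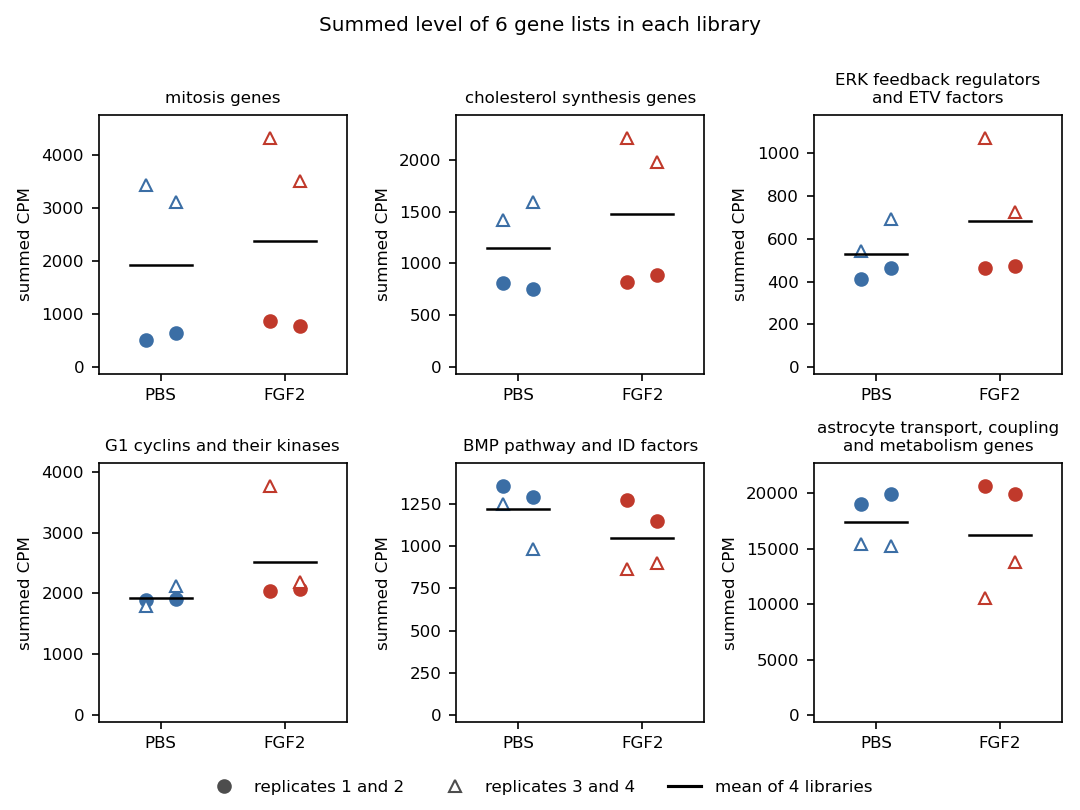
Summed CPM of 6 gene lists in each library on linear axes from 0, with circles for replicates 1 and 2, triangles for replicates 3 and 4 and a line at the mean of 4 libraries. Mitosis genes were far higher in triangles than in circles of either group, and the sums of the BMP list were lower with FGF2 among circles and among triangles.

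Cholesterol synthesis genes also had few members on the lower side. Of 23 genes tested, 19 were higher and 4 lower with FGF2 and 0 were called. The median log2 fold change was 0.36 (0.094 in replicates 1 and 2 and 0.41 in replicates 3 and 4). In both replicate sets 10 were higher and 0 lower (43.5% and 0%, against 25.3% and 25.1% of all genes). The set difference was positive in 23 of 23 genes, with a median of 1.32 on the log2 scale. The summed level was 817, 886, 2211 and 1979 CPM with FGF2 and 815, 749, 1421 and 1591 CPM with PBS. In replicates 3 and 4 both FGF2 libraries were above both PBS libraries, and in replicates 1 and 2 they were above by a narrow margin. *Msmo1*, the methylsterol monooxygenase, lay at 91.1, 91.4, 146 and 139 CPM with FGF2 and 97.1, 48.7, 67.1 and 54.5 CPM with PBS. PBS replicate 1 overlapped with the FGF2 libraries, and the log2 fold change was 0.78 (SE 0.28, unadjusted p = 0.0146), 0.32 in replicates 1 and 2 and 1.23 in replicates 3 and 4. *Cyp51*, the lanosterol demethylase, lay at 51.9, 71.4, 178 and 179 CPM with FGF2 and 50.4, 45.5, 123 and 109 CPM with PBS (log2 fold change 0.49, SE 0.21, unadjusted p = 0.0327).

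Fatty acid synthesis genes did not share this balance, with 9 higher and 8 lower of 17 and a median of 0.050 (-0.13 in replicates 1 and 2 and 0.44 in replicates 3 and 4). The 3 members at an unadjusted p under 0.05 were all higher. *Elovl6*, which elongates palmitate, lay at 64.0, 75.4, 122 and 102 CPM with FGF2 and 41.2, 45.6, 55.5 and 74.6 CPM with PBS (log2 fold change 0.73, SE 0.24, unadjusted p = 0.00849), with the FGF2 libraries above the PBS libraries within each set. *Acss2*, which makes acetyl-CoA from acetate, had 1.29 (SE 0.46, unadjusted p = 0.0135) and *Slc25a1*, the mitochondrial citrate carrier, 0.46 (SE 0.21, unadjusted p = 0.0470). Genes of lipoproteins, fatty acid uptake and oxidation were 8 higher and 15 lower of 23 (median -0.24, -0.038 in replicates 1 and 2 and -0.20 in replicates 3 and 4). *Lpl*, described above, was on the higher side of that list, with *Fabp7*, the fatty acid binding protein of radial glia and immature astrocytes, at 0.29 (SE 0.12, unadjusted p = 0.0336). *Abca1*, which exports cholesterol to lipoproteins, lay at 507, 368, 244 and 288 CPM with FGF2 and 522, 525, 578 and 353 CPM with PBS (log2 fold change -0.53, SE 0.19, unadjusted p = 0.0139).

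Genes of mature astrocyte function were mostly on the lower side with FGF2, by a small margin and in replicates 3 and 4. Of 34 tested genes of transport, coupling and metabolism, 8 were higher and 26 lower with FGF2, with a median log2 fold change of -0.21 (0.030 in replicates 1 and 2 and -0.34 in replicates 3 and 4), and 4 were higher and 9 lower in both replicate sets, where 25.3% and 25.1% of all genes did so. The summed level was 20634, 19922, 10563 and 13779.9 CPM with FGF2 and 19016, 19913, 15414 and 15194 CPM with PBS. It was higher with FGF2 in replicates 1 and 2 and lower with FGF2 in replicates 3 and 4.

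Transporters and enzymes that define astrocytes overlapped between the groups. *Slc1a3*, the glutamate transporter GLAST, lay at 1259, 1280.3, 1108 and 1054 CPM with FGF2 and 1436, 1214, 1025 and 1147 CPM with PBS (log2 fold change -0.034, SE 0.11, unadjusted p = 0.763). *Slc1a2*, the transporter GLT-1, had -0.12 (SE 0.16, unadjusted p = 0.465) and *Glul*, glutamine synthetase, 0.11 (SE 0.11, unadjusted p = 0.333). The members with the smallest p pointed both ways. *Acsbg1*, an acyl-CoA synthetase, and *Sparcl1*, the synapse-promoting protein hevin, were higher at 0.60 (SE 0.17, unadjusted p = 0.00361) and 0.52 (SE 0.16, unadjusted p = 0.00606). *Glud1*, glutamate dehydrogenase, lay at 489, 293, 307 and 450.4 CPM with FGF2 and 650.0, 527, 603 and 486 CPM with PBS (log2 fold change -0.56, SE 0.18, unadjusted p = 0.00922). DESeq2 with the set called these 3 at adjusted p of 0.00609, 0.0201 and 0.0283, and among the other genes described here *Sdc4*, *Pola2* and *Elovl6*.

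Of the 34 tested genes of transport, coupling and metabolism, 19 were higher with FGF2 in replicates 1 and 2 and 10 in replicates 3 and 4. Only 4 were higher in both sets (11.8%, against 25.3% of all genes). The astrocyte genes that follow had log2 fold changes of 0.045 to 0.37 in replicates 1 and 2 and below 0 in replicates 3 and 4. *Gja1*, connexin 43, lay at 326, 315, 57.1 and 55.5 CPM with FGF2 and 287, 269.7, 197 and 155 CPM with PBS. FGF2 replicates 3 and 4 were below every other library, and the log2 fold changes were 0.20 in replicates 1 and 2 and -1.65 in replicates 3 and 4 (interaction, unadjusted p = 8.23e-05, adjusted p = 0.175, edgeR). The interaction of *Gja1* reached an adjusted p of 0.00667 in edgeR without a filter, 0.0261 in limma's voom and 1.25e-07 in DESeq2. It stayed above 0.05 in the other edgeR fits. These gave 0.0628 with a mean of at least 20 CPM, 0.176 with DESeq2 size factors and 0.13 to 0.70 without each library in turn. *Clu*, clusterin, lay at 724, 842, 77.6 and 113 CPM with FGF2 and 745, 769, 246 and 217 CPM with PBS, with 0.045 in replicates 1 and 2 and -1.28 in replicates 3 and 4. *Aqp4*, the water channel of astrocyte endfeet, had 0.37 in replicates 1 and 2 and -0.91 in replicates 3 and 4. *Gfap*, the intermediate filament protein of astrocytes, lay at 305, 398, 10.6 and 29.0 CPM with FGF2 and 255, 314, 66.9 and 44.9 CPM with PBS. Its level in replicates 3 and 4 was low in both groups, and its log2 fold change of -0.59 (SE 0.38) combined 0.30 in replicates 1 and 2 and -1.50 in replicates 3 and 4.

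Of 20 tested genes of reactive astrocytes, 9 were higher and 11 lower (median -0.060, 0.19 in replicates 1 and 2 and -0.46 in replicates 3 and 4). Without PBS replicate 4 the median was 0.19. *Vim*, vimentin, lay at 1225, 1322, 1571 and 1532 CPM with FGF2 and 1270.2, 1258, 1559 and 1253 CPM with PBS (log2 fold change 0.077, SE 0.11, unadjusted p = 0.507). *Clcf1*, a cytokine of the IL-6 family, was highest at 3.29 with an SE of 2.85 and *S1pr3*, a sphingosine-1-phosphate receptor, lowest at -1.41 with an SE of 1.04. Astrocyte transcription factors were 10 higher and 13 lower of 23 (median -0.0038). *Nfib*, a nuclear factor I gene that drives gliogenesis, was the only one at an unadjusted p under 0.05 (-0.37, SE 0.16, unadjusted p = 0.0350), and *Lhx2* had 0.024 with 0.56 in replicates 1 and 2 and -0.51 in replicates 3 and 4.

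Progenitor and radial glia genes stood at 9 higher and 10 lower of 19 (median -0.0038). *Nes*, nestin, lay at 105, 118, 375 and 223 CPM with FGF2 and 102, 75.9, 163 and 285 CPM with PBS (log2 fold change 0.37, SE 0.22, unadjusted p = 0.115). *Dbi*, the acyl-CoA binding protein that also binds GABA-A receptors, had -0.27 (SE 0.10, unadjusted p = 0.0183), and *Ednrb*, the endothelin B receptor, -0.55 with 0.055 in replicates 1 and 2 and -1.16 in replicates 3 and 4. *Fabp7*, named above, is also on this list and was higher at 0.29 (SE 0.12, unadjusted p = 0.0336, edgeR). *Egfr*, the receptor of the HB-EGF in the medium, lay at 164, 249, 300.2 and 326 CPM with FGF2 and 166, 227, 285 and 306 CPM with PBS (log2 fold change 0.078, SE 0.18, unadjusted p = 0.666).

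BMP signaling, which favors astrocyte differentiation and is known to oppose FGF2 in cultured astrocytes, was measured through its ligands, receptors and ID targets, most of which were on the lower side. Of 19 genes tested, 4 were higher and 15 lower with FGF2, 0 at an unadjusted p under 0.05, and 3 were higher and 8 lower in both replicate sets (15.8% and 42.1%, against 25.3% and 25.1% of all genes). The median log2 fold change was -0.34 (-0.31 in replicates 1 and 2 and -0.31 in replicates 3 and 4). Single genes of the list had a median SE of 0.91. The summed level was 1271, 1152, 865 and 902 CPM with FGF2 and 1355, 1289, 1249 and 985 CPM with PBS. Both FGF2 libraries were below both PBS libraries in each set, by a narrow margin in replicates 1 and 2. *Id3* and *Id4*, BMP-induced inhibitors of basic helix-loop-helix factors chosen after their values were seen, had the highest PBS levels of the list beside *Smad5*. *Id3* lay at 91.6, 87.6, 191 and 188 CPM with FGF2 and 110.1, 112, 205 and 288 CPM with PBS (log2 fold change -0.34, SE 0.17, unadjusted p = 0.0683) and *Id4* at 542, 481, 93.6 and 159.6 CPM with FGF2 and 588, 511, 326 and 159.7 CPM with PBS (-0.52, SE 0.25, unadjusted p = 0.0546). *Id1* went the other way and was the highest member. It lay at 20.5, 35.5, 41.3 and 62.4 CPM with FGF2 and 0, 10.6, 21.6 and 9.93 CPM with PBS (log2 fold change 2.06, SE 1.06, unadjusted p = 0.0724). *Bmp6*, a ligand of the pathway, was the lowest member with a mean of at least 5 CPM. It lay at 3.17, 5.32, 4.99 and 3.51 CPM with FGF2 and 8.50, 27.5, 7.61 and 14.3 CPM with PBS, without overlap between the groups but with a log2 fold change of -1.73 and an SE of 1.13.

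**Figure D4:**
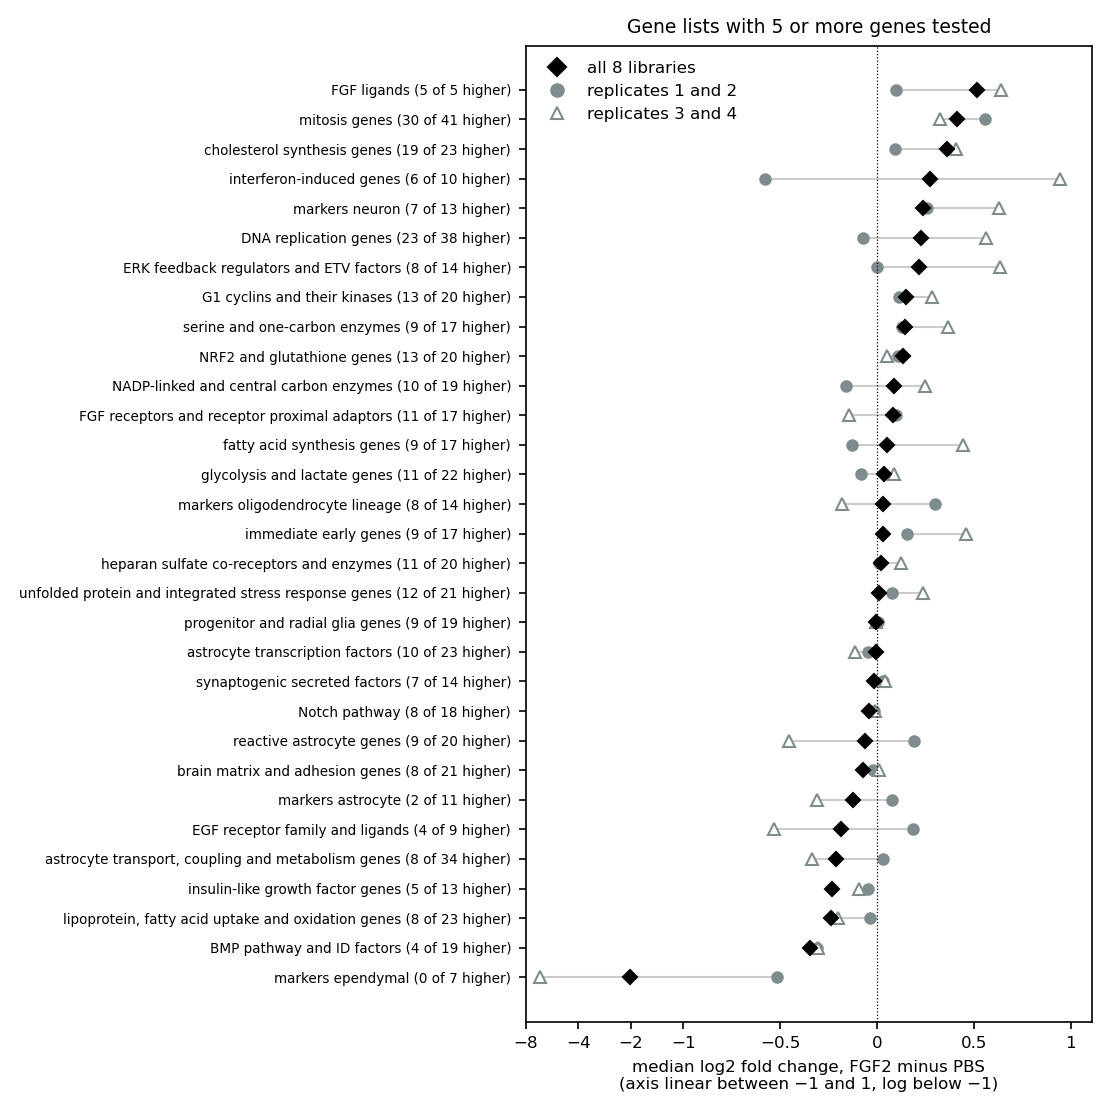
Median log2 fold change of the 31 gene lists with 5 or more genes tested, with diamonds for the fit over 8 libraries, circles for replicates 1 and 2 and triangles for replicates 3 and 4. The dotted line is the median of all genes tested. The BMP and mitosis lists kept their side in both sets, as did many other lists. The ependymal markers, mostly low genes with a median SE of 2.91, stood at -2.02.

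Markers of other cell types were measured beside these lists. Ependymal markers were lower with FGF2 in 7 of 7 genes tested. Their summed level was 376, 353, 121 and 84.7 CPM with FGF2 and 395, 405, 209 and 238 CPM with PBS, lower with FGF2 within each set and lowest in replicates 3 and 4. *Foxj1*, the regulator of motile cilia, carried most of it. It lay at 301, 299, 112 and 79.1 CPM with FGF2 and 320.2, 319, 167 and 204 CPM with PBS (log2 fold change -0.52, SE 0.21, unadjusted p = 0.0233). The other 6 lay under 40 CPM in every library. Endothelial and mural markers were lower in 3 of 3 tested, of 13 listed, and summed to 157, 228, 54.4 and 41.2 CPM with FGF2 and 311, 308, 82.5 and 98.7 CPM with PBS. Smooth muscle actin, *Acta2*, carried that sum and lay at 139, 209, 53.8 and 41.2 CPM with FGF2 and 238, 259, 68.9 and 80.8 CPM with PBS (log2 fold change -0.58, SE 0.20, unadjusted p = 0.0111). *Pdgfrb*, the receptor of pericytes, had -4.24 (SE 1.79), with no read in FGF2 replicates 3 and 4 nor in PBS replicate 4. *Cldn5*, *Cdh5* and *Tie1*, defining genes of endothelium, had no read in any library.

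Neuron markers were 7 higher and 6 lower of 13 and summed to 489, 489, 260.0 and 209.9 CPM with FGF2 and 337, 479, 150.4 and 209.7 CPM with PBS. *Dcx*, doublecortin of migrating neurons, had 1.04 (SE 0.75) and *Gad2*, which makes GABA, -2.91 (SE 2.20), the latter at 0 in FGF2 replicates 3 and 4 and PBS replicate 4. Oligodendrocyte lineage markers were 8 higher and 6 lower of 14. *Cnp*, an enzyme of myelin, had -0.43 (SE 0.19, unadjusted p = 0.0378), with -0.049 in replicates 1 and 2 and -0.82 in replicates 3 and 4. Fibroblast markers summed to 45.4 to 69.7 CPM with FGF2 and 50.1 to 89.7 CPM with PBS, with *Fbln1*, a matrix protein, at -0.44 (SE 0.92) and *Pdgfra* at -0.019 (SE 0.40). *Pdgfra* is also on the oligodendrocyte lineage list. It averaged 36.4 CPM with FGF2 and 35.5 CPM with PBS, where the fibroblast sum averaged 61.1 and 65.9 CPM. Microglial markers summed to 7.31 to 34.3 CPM with FGF2 and 5.05 to 27.4 CPM with PBS. The part of ependymal, mural or neuronal cells in the values of the other lists was not tested.

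The replicate sets, which share no library, were then compared. A gene had the same sign in both sets in 50.4% of 12744 genes, in 51.4% of genes with a mean of at least 20 CPM and in 55.3% of those with a mean of at least 200 CPM. Spearman's rho of the log2 fold changes across genes was 0.011, 0.011 and 0.085 in the same order, a description across genes, which are not independent. Among the lists with 5 or more genes tested, the share of members higher in both sets was 40% or more in 8, against 25.3% of all genes. These were the FGF ligands (60%), ERK feedback regulators (50%), serine and one-carbon enzymes (47.1%), mitosis genes (43.9%), cholesterol synthesis genes (43.5%), stress response genes (42.9%), and NRF2 and interferon-induced genes (40% each). The share lower in both sets reached 40% in the ependymal markers (71.4%) and the BMP list (42.1%), against 25.1% of all genes.

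The difference between sets was tested as an interaction. It was called in 2 genes at an adjusted p under 0.05 (0.0157%), with 604 (4.74%) at an unadjusted p under 0.05. *Mbp*, myelin basic protein, lay at 111, 109.9, 0 and 0 CPM with FGF2 and 35.6, 65.0, 49.7 and 10.8 CPM with PBS. FGF2 was above PBS in replicates 1 and 2, and FGF2 replicates 3 and 4 had no read (interaction adjusted p = 0.0126, edgeR's quasi-likelihood test). *Phkg1*, a catalytic subunit of phosphorylase kinase, lay at 74.2, 30.9, 0.0206 and 0 CPM with FGF2 and 47.5, 31.6, 16.9 and 32.0 CPM with PBS, with 1 and 0 reads in FGF2 replicates 3 and 4 (adjusted p = 0.0237). *Ccn2*, a matricellular protein, and *Erich3*, a ciliary gene, came next. They also had no read in FGF2 replicates 3 and 4 and were at an adjusted p of 0.0815 each. The count of calls was 0 without any 1 of the FGF2 libraries or PBS replicate 1, 1 without PBS replicate 3 or 4 and 15 without PBS replicate 2, alternatives added after the data were seen. Both calls rest on libraries with 0 or 1 read. Of genes with a mean of 5 to 10 CPM over the other libraries, 11.9% and 24.5% were at 0 in FGF2 replicates 3 and 4. *Mbp* and *Phkg1* lay above 10 CPM in every other library, and the share at 0 among genes of their level was not tested.

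**Figure D5:**
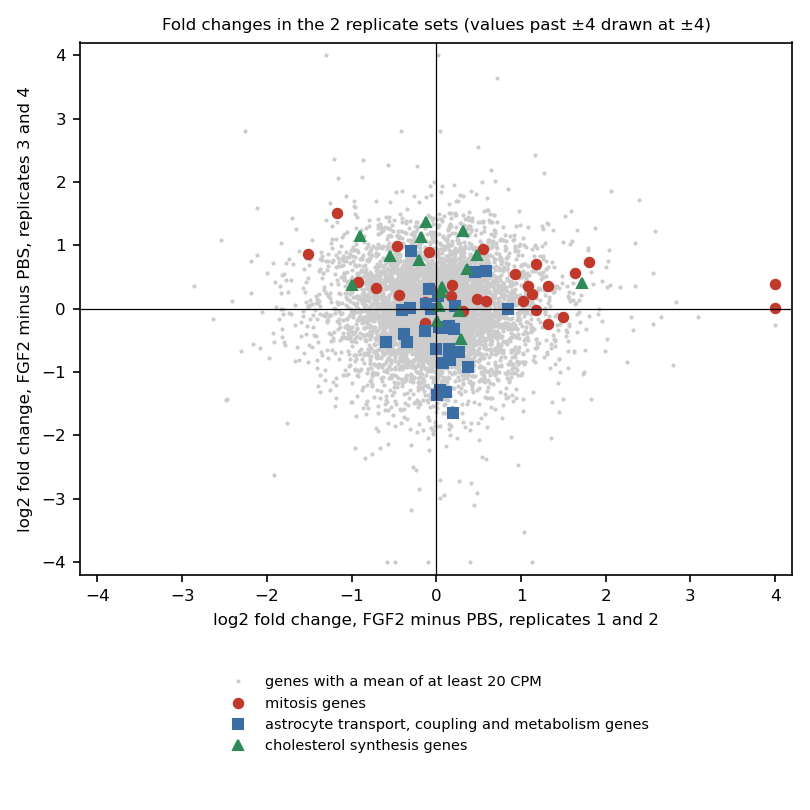
Log2 fold change in replicates 3 and 4 against that in replicates 1 and 2 for 6634 genes with a mean of at least 20 CPM, on linear axes where 10 genes past 4 in size are drawn at the edge. Most mitosis and most cholesterol genes lay above 0 on the vertical axis and most astrocyte genes below it, while on the horizontal axis all 3 lists spread to both sides of 0.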

How the data were processed

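Immunopanned mouse astrocytes were profiled by 3ʹ RNA sequencing after 7 d of FGF2 (50 ng/ml) or PBS. The authors aligned and counted reads with STAR and deposited whole-number read counts per gene. The submitters' processing notes name GRCm38. The annotation, the strand setting and the use of molecular identifiers were not given in the sources used here. Overlapping or near-identical genes may share reads. The 114 spike-in entries were left out (at most 15 counts in a library). Columns of 6 other libraries were not used. The methods list 3 FGF2 replicates and the labels 4, and all 4 were used.

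Counts were filtered (filterByExpr, minimum count 10, minimum total 15), normalized by TMM and fitted with edgeR 4.0.16 by its quasi-likelihood test with replicate set and treatment as terms, with Benjamini-Hochberg adjustment over 12744 genes. The interaction of treatment and set was a second fit, and fold changes within a set came from fits of 2 against 2 libraries. DESeq2 1.42.0, limma 3.58.1 (voom with quality weights), other filters and size factors, no set term, the FGF10 libraries added and leaving out each library in turn were alternatives. Fold bounds used a floor of 3 counts per library. The fits were run on simulated data, where recovery of changed genes was required only at a spread well below that of these libraries. The run at low spread cannot tell how many changes would be found at the spread seen here. A further run used the spread estimated for each gene from these libraries, without such a requirement, and its recovery is not given here. Replicate counts differed by more than sampling noise.

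The libraries, the 34 gene lists and the tests were chosen with earlier results of these data known, so the lists are described by counts and medians without a test. Named genes were 10 higher and 10 lower genes with the smallest p among those that did not overlap within either set and had a mean of at least 5 CPM, fixed readouts (among them receptors, feedback regulators and astrocyte genes, and *Lpl*, *C2cd5* and *Me3*, which an earlier account names), and from each list up to 4 members at an unadjusted p under 0.05, otherwise the highest and lowest member. Genes with at most 3 counts in every library of 1 group and at least 10 CPM in every library of the other were also to be named, and none met this. *Id3*, *Id4*, *Olig1*, *Olig2*, *Ccn2*, *Erich3*, *Mbp*, *Phkg1* and the absent endothelial genes were added after their values were seen.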

Additional observations from a re-analysis of the deposited data

Results flagged for a closer look

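Of 276 groups of 4 libraries checked for a single library far from the other 3, 7 passed the 95% limit of Dixon's test (2.54%, where chance gives 5%). *Fgfr2* was at 21.8 CPM in FGF2 replicate 3, with the other FGF2 libraries at 65.0 to 71.4 CPM. *Vim* was at 1559 CPM in PBS replicate 3, with the others at 1253 to 1270.1 CPM. *Fgf1* was at 11.4 CPM in PBS replicate 4 and at most 0.111 CPM in the others. *Klf4* was at 20.7 CPM in FGF2 replicate 2 and between 0.0183 and 0.763 CPM in the others. *Mthfd2*, a mitochondrial folate enzyme, was at 39.4 CPM in FGF2 replicate 3 and between 1.87 and 3.56 CPM in the others. *Irf9*, a factor of interferon signaling, was at 4.35 CPM in PBS replicate 4, with the others at 15.4 to 17 CPM. The summed level of G1 cyclins and their kinases was 3766 CPM in FGF2 replicate 3, with the others at 2045 to 2184 CPM, and *Ccnd1* was at 1001 CPM in that library.

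In 2 genes the fold change differed between replicate sets by the test of the interaction. For *Mbp* the difference on the log2 scale was -14.35, from 1.13 in replicates 1 and 2 and -13.21 in replicates 3 and 4 (adjusted p = 0.0126, edgeR's quasi-likelihood test). For *Phkg1* it was -11.16, from 0.40 to -10.77 (adjusted p = 0.0237, edgeR's quasi-likelihood test). Both sizes are set against libraries with 0 or 1 read and depend on the prior count.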

How the results depend on the processing

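The count of genes called between FGF2 and PBS was 0 in edgeR without the set term (223 genes at an unadjusted p under 0.05), with DESeq2 size factors (404), with a mean of at least 20 CPM (347), with the FGF10 libraries added (653) and without each library in turn (335 to 554), and 0 in limma's voom with quality weights (522). It was 2 without a filter (*Plk1* and *Ccnd1*) and 1 with a mean of at least 10 counts (*Ccnd1*). It was 765 by DESeq2 with the set and 117 without it, of which 654 and 104 had at most 3 reads in every library of 1 group, and 647 and 74 at the threshold of the study. The interaction was called in 18 genes without a filter, in 4 with a mean of at least 20 CPM, in 892 by DESeq2 and in 20 by voom, and without each library in turn in 0 to 15, the last 3 alternatives having been added after the data were seen. The share of genes with the same sign in both sets was 38.7% without a filter. Same-numbered FGF2 and PBS libraries correlated by 0.0905 to 0.109 in their deviations from the group means, not above 0.1 in each pair, so the numbers were not taken to pair the cultures. With the replicate block the count of calls was 0, with 384 genes at an unadjusted p under 0.05 against 403.

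The list medians kept their direction in both replicate sets for mitosis, cholesterol and BMP genes, and also for many other lists. Among those were G1 cyclins (0.11 in replicates 1 and 2 and 0.28 in replicates 3 and 4) and neuron markers (0.26 and 0.63). Lipoprotein genes (-0.038 and -0.20) and ependymal markers (-0.52 and -6.63) did so on the lower side. The ependymal medians rest on low genes, with a median SE of 2.91 and 1 of 7 genes at a mean of at least 20 CPM. The summed level of these markers with FGF2 was 0.91 of that with PBS in replicates 1 and 2 and 0.46 in replicates 3 and 4. The median of the receptor list was -0.14 in replicates 3 and 4 only and ran over -0.00028 to 0.20 without each library in turn, below 0 only without FGF2 replicate 2. That of the DNA replication list ran over -0.087 to 0.56, below 0 only without FGF2 replicate 3, and that of the reactive astrocyte list over -0.52 to 0.19, above 0 without FGF2 replicate 3, PBS replicate 2 or PBS replicate 4. That of the ERK feedback list was 0.63 in replicates 3 and 4 only. In replicates 1 and 2 only, the median was 0.030 for astrocyte transport genes and 0.094 for cholesterol genes.

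Log2 fold changes of named genes that turned sign are given by setting. With voom they were *Aqp4* 0.023, *Dusp6* 0.43, *Fgfr2* -0.091, *Gad2* 0.23, *Gfap* 0.032, *Lhx2* -0.0044, *Pdgfra* 0.015, *S1pr3* 0.026, *Shmt1* 0.80 and *Slc1a3* 0.0026. In replicates 1 and 2 only they were *Aqp4* 0.37, *Clcf1* -0.18, *Clu* 0.045, *Ednrb* 0.055, *Fgf13* -0.29, *Fgfr1* -0.0029, *Gad2* 0.26, *Gfap* 0.30, *Gja1* 0.20, *Pdgfra* 0.11, *S1pr3* 0.40 and *Slc1a2* 0.037. In replicates 3 and 4 only they were *Dusp6* 0.60, *Fgfr2* -0.28, *Fgfr3* -0.42, *Lhx2* -0.51 and *Shmt1* 2.08. Without the set term they were *Clcf1* -0.012, *Dusp6* 0.40, *Gad2* 0.17, *Gfap* 0.13, *Pdgfra* 0.032 and *Shmt1* 0.94, and by DESeq2 without it *Clcf1* -0.035, *Dusp6* 0.39, *Gad2* 0.16, *Gfap* 0.12, *Pdgfra* 0.023 and *Shmt1* 0.94. With the replicate block they were *Fgfr2* -0.037 and *Shmt1* 0.75, and with the FGF10 libraries added *Dusp6* 0.068. Without each library in turn the ranges were *Aqp4* -0.53 to 0.089, *Clcf1* -0.17 to 6.22, *Dusp6* -0.42 to 0.20, *Egfr* -0.052 to 0.19, *Fbln1* -0.90 to 0.52, *Fgf13* -0.93 to 2.14, *Fgfr1* -0.0042 to 0.24, *Fgfr2* -0.24 to 0.33, *Gad2* -5.44 to 0.25, *Lhx2* -0.17 to 0.30, *Pdgfra* -0.22 to 0.17, *Shmt1* -7.50 to 1.80, *Slc1a2* -0.22 to 0.055, *Slc1a3* -0.076 to 0.022 and *Vim* -0.0032 to 0.13. The cause was not tested for any of these. With 1 or more libraries at 0 in 27.8% of genes, fold changes were less precise for low genes, with a median SE on the log2 scale of 0.68 over all genes and 0.37 at a mean of at least 20 CPM.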

Other observations

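Further pathways of the cultures were described in the same way, as members higher and lower with FGF2 and the median log2 fold change. No member was called by edgeR, and DESeq2 with the set called *Me3* and *Sparcl1* among those named here. Notch pathway genes were 8 higher and 10 lower of 18 (median -0.042), with *Numb*, an inhibitor of Notch, at 1.01 (SE 0.59) and *Dll4*, a Notch ligand, at -1.13 (SE 1.71). Brain matrix and adhesion genes were 8 higher and 13 lower of 21 (median -0.071). *Sparc*, a matricellular protein that inhibits synapse formation, lay at 2006, 1885, 388 and 313 CPM with FGF2 and 1927, 2004, 701 and 706 CPM with PBS (log2 fold change -0.51, SE 0.18, unadjusted p = 0.0124), with -0.019 in replicates 1 and 2 and -1.0 in replicates 3 and 4. Synaptogenic secreted factors were 7 higher and 7 lower of 14 (median -0.014), among them *Sparcl1* at 0.52 (SE 0.16) and *Wnt7a*, a Wnt ligand, at 1.28 (SE 0.58). Insulin-like growth factor genes were 5 higher and 8 lower of 13 (median -0.23), with the receptor *Igf1r* at -0.39 (SE 0.15, unadjusted p = 0.0209) and the binding protein *Igfbp4* at 0.57 (SE 0.26, unadjusted p = 0.0453). Genes of the EGF receptor family and its ligands were 4 higher and 5 lower of 9 (median -0.18). *Errfi1*, a feedback inhibitor of EGFR, was highest at 4.0 with an SE of 2.0, and *Hbegf*, the gene of the factor in the medium, lowest at -0.98 with an SE of 0.71.

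Metabolic and stress lists differed in how many members kept 1 sign in both replicate sets. Glycolysis and lactate genes were 11 higher and 11 lower of 22 (median 0.035), and *Pkm*, pyruvate kinase, lay at 281, 359, 815 and 790.4 CPM with FGF2 and 200.4, 369, 521 and 495 CPM with PBS (log2 fold change 0.41, SE 0.19, unadjusted p = 0.0462). NADP-linked enzymes were 10 higher and 9 lower of 19 (median 0.089), with *Me3* as the lowest. Serine and one-carbon enzymes were 9 higher and 8 lower of 17 (median 0.14), with *Mthfd2* at 1.24 (SE 1.36) and *Shmt1* at -3.05 (SE 5.56), and 47.1% of the list were higher and 17.6% lower in both sets. Genes of the unfolded protein and integrated stress responses were 12 higher and 9 lower of 21 (median 0.012), with *Herpud1*, a protein of endoplasmic reticulum degradation, at 1.14 (SE 0.74) and *Dnajb9*, a chaperone, at -0.83 (SE 0.84), and 42.9% of the list were higher and 9.52% lower in both sets. NRF2 and glutathione genes were 13 higher and 7 lower of 20 (median 0.13), with heme oxygenase *Hmox1* at 0.51 (SE 1.12) and *Gclc*, which starts glutathione synthesis, at -0.44 (SE 0.34). Their sum lay at 4238, 3981, 5619 and 5143 CPM with FGF2 and 3752, 3938, 4342 and 3993 CPM with PBS, above PBS within each set. Interferon-induced genes were 6 higher and 4 lower of 10 (median 0.28) with 12 of 22 below the filter, and *Irf9* and *Stat2*, parts of the same transcription complex, stood on opposite sides at 1.26 (SE 0.60) and -0.72 (SE 0.62).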
